A study of Drosophila melanogaster with 4 samples.

Results

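The circadian clock genes of adult male Drosophila melanogaster were examined on 4 whole-genome expression arrays. The set was chosen by gene symbol from 10 names: per, tim, vri, Pdp1, cwo, Clk, cyc, cry, dbt and to. Of these, 8 had a probe set annotated with that symbol alone, among 11981 genes with such a probe set, and they were covered by 10 probe sets. No probe set carries the symbol dbt, and the gene is listed under its other name, dco; its values are given separately and it is not counted among the 8. The clock output gene to was not analysed here.

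All flies were wild-type males of the Canton-S strain, 1 to 2 days old and raised on cornmeal and agar medium. One group was unexposed (control), and the others spent 24 h in the vapour of benzene, toluene or formaldehyde, with 1 array per group. The sources used here do not state vapour doses, flies per array, light cycle or hour of collection. With no replicate, values carry no standard error or p-value. A gap between arrays also holds whatever separated their flies, RNA preparations and hybridisations, which cannot be told apart from the exposure.

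The fly clock is a feedback loop of transcription. The proteins CLOCK (from Clk) and CYCLE (from cyc) switch on per and tim in the evening, and the PERIOD and TIMELESS proteins return to the nucleus at night to hold CLOCK and CYCLE back. In an interlocked loop the same activators drive vri and Pdp1, whose products repress and activate Clk. The transcripts of per, tim, vri, Pdp1 and cwo are known from fly heads to be high in the evening to early night, and those of Clk and cry to be high around dawn, whereas cyc is steady. Clocks of this kind run in brain neurons, eyes and many body tissues, so the balance of evening to morning transcripts was used to ask whether the 4 groups of flies were collected at a like phase.

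Read by the brightest probe set of each gene, clock transcripts on the benzene and toluene arrays lay within 0.18 log2 units of the control. A second, dimmer probe set of cwo was 1.52-fold lower on benzene and 1.31-fold lower on toluene. On the formaldehyde array cwo, by the brighter of its probe sets, was 1.39-fold and Pdp1 1.28-fold higher than on the control array, while per, tim and vri were within 0.09 log2 units of it and Clk was 0.15 log2 units below it. All 8 genes reached the array median on all 4 arrays, which was the detection threshold, so the filter on dim genes removed none of them. By these brightest probe sets none differed 2-fold from the control for any exposure. That size was reached by 0.43% of 8134 detected genes for benzene, 0.283% of 8140 for toluene and 1.11% of 8165 for formaldehyde. None reached 1.5-fold either, against 1.35%, 1.17% and 2.89% of detected genes; the second cwo probe set, which these counts leave out, passed it for benzene.

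**Figure D1:**
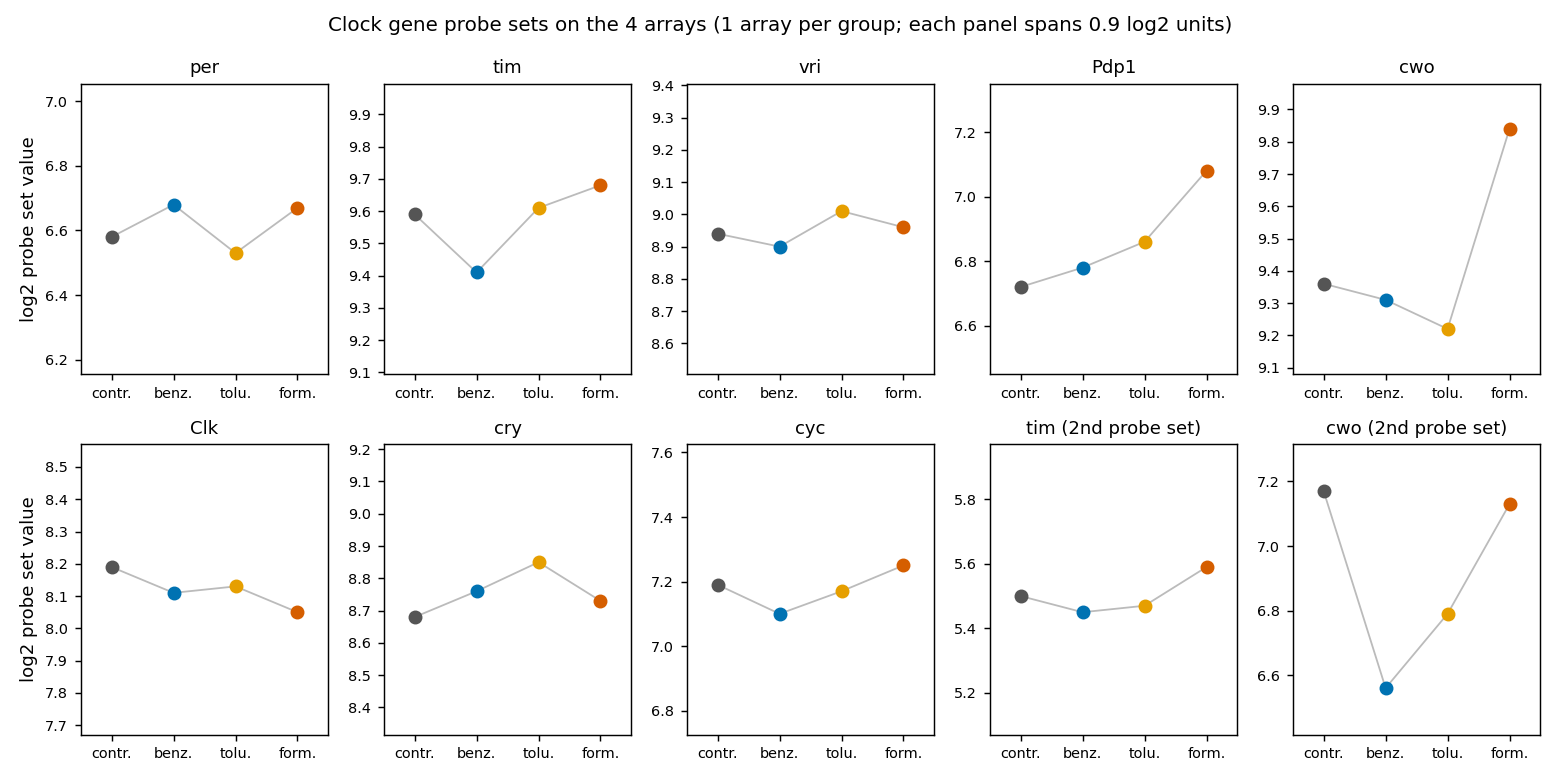
Log2 value of each of the 10 clock probe sets on the control, benzene, toluene and formaldehyde arrays, 1 point per array, with panels of equal height on the log2 axis. The first cwo probe set stands at 9.84 on the formaldehyde array and at 9.22 to 9.36 on the others, and the second is lowest, at 6.56, on the benzene array.

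The gene period (per), whose protein is the inhibitor of the loop, was measured at a log2 value of 6.58 on the control array, 6.68 on benzene, 6.53 on toluene and 6.67 on formaldehyde. These values span 0.14 log2 units, with benzene highest and toluene lowest. The range over the 4 arrays was at least as wide as this in 70.6% of detected genes, whose median range was 0.21. In RefSeq's annotation the span of per overlaps that of dyw (daywake), a member of the takeout family. That gene's probe set lay below the array median on all 4 arrays, at 5.60, 5.45, 5.62 and 5.89.

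Its partner gene timeless (tim), whose product is destroyed in light, had values of 9.59 (control), 9.41 (benzene), 9.61 (toluene) and 9.68 (formaldehyde). The benzene array was the low one, with a log2 ratio of -0.18 to the control, and 20.5% of detected genes lay at or below that ratio. A second tim probe set, below the array median on all arrays, gave 5.50, 5.45, 5.47 and 5.59, also with benzene lowest and formaldehyde highest. The repressor gene vrille (vri) varied least among the 8, at 8.94, 8.90, 9.01 and 8.96, a range of 0.11.

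Pdp1 encodes the activator of Clk and also acts outside the clock, in muscle among other tissues. It stood at 6.72 on the control array, 6.78 on benzene, 6.86 on toluene and 7.08 on formaldehyde. The control array was lowest and the formaldehyde array highest. Its formaldehyde log2 ratio of 0.36 was larger in size than or equal to that of 87.4% of detected genes.

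The gene clockwork orange (cwo), a repressor that competes with CLOCK and CYCLE for their binding sites, had the widest range of the 8 genes, 0.62 log2 units, and 4.3% of detected genes ranged at least as widely. Its brighter probe set read 9.36 (control), 9.31 (benzene), 9.22 (toluene) and 9.84 (formaldehyde). The formaldehyde array thus stood apart from the other three, with a log2 ratio to the control of 0.47. The second cwo probe set, also detected on all arrays, read 7.17, 6.56, 6.79 and 7.13. There the formaldehyde array was within 0.04 log2 units of the control, while benzene was 1.52-fold and toluene 1.31-fold lower. The probe sets therefore disagreed on which arrays differ from the control, although both placed formaldehyde above benzene and toluene.

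Of the morning genes, Clk read 8.19 (control), 8.11 (benzene), 8.13 (toluene) and 8.05 (formaldehyde), with the control highest. The blue-light receptor gene cry read 8.68, 8.76, 8.85 and 8.73, with the control lowest. For each exposure, then, Clk lay below the control and cry above it. The steady partner of Clk, cyc, read 7.19, 7.10, 7.17 and 7.25 and ranged over 0.15 log2 units. Clk ranged over 0.15 as well and cry over 0.17, each less than the median range of detected genes.

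The kinase gene dco, known to clock biologists as doubletime, marks the PERIOD protein for destruction and has other roles in growth. It read 8.63 on the control array and 8.78, 8.75 and 8.91 on the benzene, toluene and formaldehyde arrays. The control array was the lowest, and the formaldehyde log2 ratio of 0.28 was at or above that of 91.4% of detected genes.

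**Figure D2:**
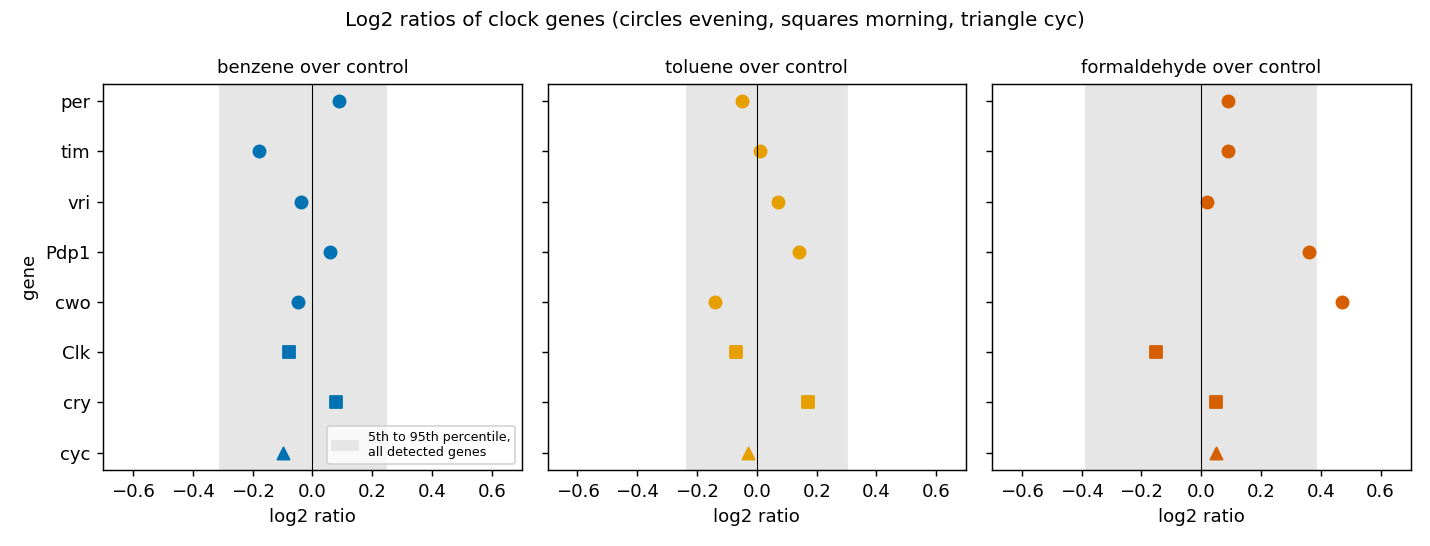
Log2 ratio of each of the 8 clock genes to the control array for benzene, toluene and formaldehyde; circles are evening genes, squares morning genes and the triangle cyc, and the grey band holds the 5th to 95th percentile of all detected genes. The members lie inside the band for all 3 exposures except cwo with formaldehyde, at 0.47 against a 95th percentile of 0.384.

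Counts were also made at a smaller size, a log2 ratio of 0.32 in size (rounded; 25% higher, or as many times lower). At that threshold 0 of 8 members were higher and 0 lower on the benzene array, against 2.88% of detected genes higher and 3.96% lower. On the toluene array again 0 were higher and 0 lower, against 4.26% and 1.56%. On the formaldehyde array 2 of 8 were higher (cwo and Pdp1) and 0 lower, against 6.8% higher and 10.7% lower. In 8 genes the background shares correspond to less than 1 gene each, and with 1 array per group no test stands behind the count of 2. With the mean of each gene's probe sets in place of the brighter one, cwo was at 0.22 for formaldehyde and -0.33 for benzene, so that the counts became 1 higher for formaldehyde and 1 lower for benzene.

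Above 0 were 3 of 8 members for benzene, against 42.9% of all detected genes, 4 of 8 for toluene, against 51.5%, and 7 of 8 for formaldehyde, against 52.3%. The median log2 ratio of the 8 genes was -0.05, -0.01 and 0.07, beside medians of -0.025, 0.005 and 0.01 over all detected genes. These comparisons share 1 control array, so a low or high control value enters all of them. The signs of the 8 genes' ratios were the same when arrays were centred on their medians or scaled to equal quantiles.

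The phase check compares the mean of the 5 evening genes with the mean of Clk and cry. Relative to the control array, the evening mean differed by -0.02 log2 units on benzene, 0.01 on toluene and 0.20 on formaldehyde. The morning mean differed by 0.00, 0.05 and -0.05. The evening minus morning difference from the control was thus -0.03 for benzene, -0.04 for toluene and 0.25 for formaldehyde. The control, benzene and toluene arrays lay within 0.04 log2 units of each other on this measure, and the formaldehyde array lay above them. That closeness depended on the genes and probe sets used. The benzene difference was -0.14 with cwo read by its second probe set, and the toluene difference was -0.16 without Clk.

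The formaldehyde value rested on a few genes. All 5 evening genes were above 0, but the ratios were 0.09 for per, 0.09 for tim and 0.02 for vri beside 0.36 for Pdp1 and 0.47 for cwo. With per, tim and vri alone as evening genes the difference was 0.11 in place of 0.25, with the median over genes in place of the mean it was 0.07, and with cwo read by its second probe set it was 0.15. Without Clk it was 0.15, and without cry 0.35. It was above 0, and above the benzene and toluene values, in all 14 alternatives run. Centring arrays on their medians cannot change this measure, and the mean and the median of probe sets gave the same value. All alternatives reuse the same 4 arrays, so their number is no measure of precision. No spread between replicate arrays is available to set the formaldehyde value against, and whether the flies differed in the hour of collection was not tested.

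**Figure D3:**
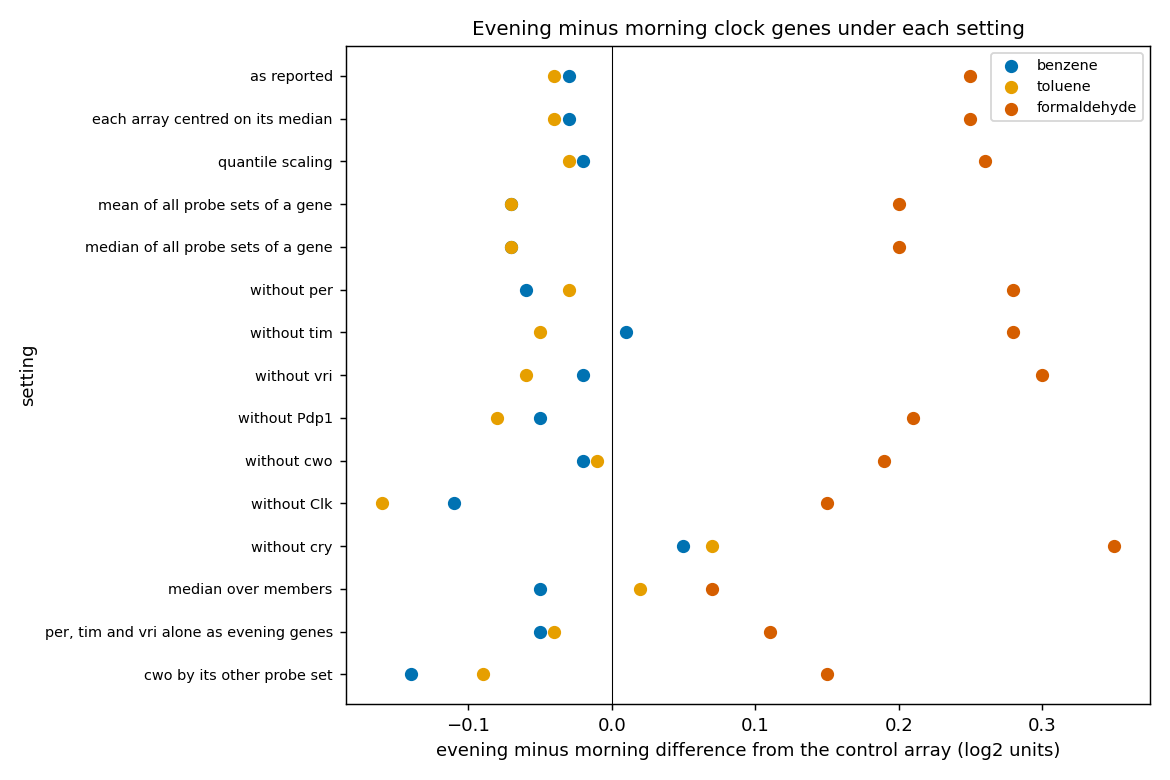
Difference from the control array in the evening minus morning measure, in log2 units, for benzene, toluene and formaldehyde, as reported (top line) and under each of 14 alternatives. Formaldehyde points run from 0.07 to 0.35, whereas benzene runs from -0.14 to 0.05 and toluene from -0.16 to 0.07.

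Benzene and toluene, aromatic hydrocarbons that differ by a methyl group, were compared directly after 24 h each, with doses not given. By the brightest probe sets, the largest clock difference between these arrays was in tim, 1.14-fold higher with toluene (9.61 against 9.41). Next came per, lower with toluene by a log2 ratio of -0.14 (6.53 against 6.68). The toluene over benzene log2 ratios of the other members were 0.11 (vri), 0.08 (Pdp1), -0.09 (cwo), 0.01 (Clk), 0.08 (cry) and 0.07 (cyc). The second cwo probe set ran the other way from the first and by more than tim, at 6.79 with toluene against 6.56 with benzene. By the brightest probe sets none of the 8 reached 0.32 in size, which was reached by 4.28% of 8126 detected genes, and none reached 2-fold (0.443%). The evening minus morning measure differed by -0.02 between them. With 1 array each no interval could be given, so these values do not show that the compounds act alike.

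Set against the other exposures, formaldehyde again differed most in cwo, which was 1.44-fold above benzene and 1.53-fold above toluene. It was the only member past 0.32 in either comparison, against 7.33% and 7.07% of detected genes, and none was past 2-fold (1.01% and 0.859%). Pdp1 followed at log2 ratios of 0.30 to benzene and 0.22 to toluene. The gene tim was at 0.27 and 0.07, per at -0.01 and 0.14, vri at 0.06 and -0.05, and cyc at 0.15 and 0.08. Clk was at -0.07 and -0.08 and cry at -0.04 and -0.12. The evening minus morning measure was higher by 0.28 than on the benzene array and by 0.30 than on the toluene array.

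Genes with patterns most like those of the 3 widest-ranging members were found by the mean absolute difference of centred log2 values over the 4 arrays, among 8249 other detected genes. For cwo, read by its brighter probe set, these were CG10911 (0.014), rost (0.020), CG4301 (0.021), Dh44 (0.032) and CG14120 (0.034). Dh44 encodes a diuretic hormone that is also an output signal of the brain's clock circuit. The second cwo probe set had another pattern, highest on the control array. For Pdp1 they were Galphai, puc, Reps, CG8326 and cpb, at 0.008 to 0.012. For tim they were Ak6, Lrch, eas, raw and CG10565, at 0.013 to 0.017. The likeness describes these 4 arrays alone.

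Regulators of clock protein stability and activity differed little from the control for benzene and toluene by their medians. The formaldehyde median was larger at the detection threshold used, but near 0 with a stricter one. Of 8 detected genes for kinases, phosphatases and protein degradation, 0 passed 0.32 in either direction for benzene or toluene, with medians of 0.04 and 0.03. The shares of all detected genes were 2.88% higher and 3.96% lower for benzene, and 4.26% and 1.56% for toluene. For formaldehyde 0 were higher and 1 lower, against 6.8% and 10.7% of detected genes. The formaldehyde median was 0.13 beside 0.01 over all detected genes, and with the mean of probe sets the count lower became 0. With detection set at the 75th percentile the median was 0.02 for formaldehyde and -0.11 for benzene, over fewer genes. The lower one was the ubiquitin ligase gene Cul3, whose product takes part in TIMELESS degradation (10.12 control, 9.79 formaldehyde, log2 ratio -0.33). Cul3 was also below the control for benzene, at -0.27, and for toluene, at -0.14. The gene slmb, whose product recognises phosphorylated PERIOD, was at 0.31 for formaldehyde, just under the threshold, and at 0.15 for benzene and 0.11 for toluene. The phosphatase subunit gene wdb was at 0.30 for formaldehyde, 0.04 for benzene and 0.13 for toluene. For another such subunit, tws, chosen after its value was seen, the ratios were near each other, at 0.27, 0.22 and 0.20. The median size of the formaldehyde ratio over all detected genes was 0.141. The values for sgg, the CkII subunit genes, mts and nmo were not analysed here.

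Cofactors of clock transcription and translation gave 0 log2 ratios past 0.32 among 6 detected genes for each exposure, with medians of 0.04, 0.04 and 0.17. The shares of all detected genes were 2.88% higher and 3.96% lower for benzene, 4.26% and 1.56% for toluene, and 6.8% and 10.7% for formaldehyde. A count of 0 in 6 genes lies close to these shares. Named by size, tyf, which promotes per translation in pacemaker neurons, was at 0.13, 0.23 and 0.15. The gene Pur-alpha was at 0.04, 0.07 and 0.23, and kay, for a Fos-type transcription factor, at -0.02, 0.00 and 0.20.

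Light input and neuronal output genes past the threshold were found for formaldehyde, for which more of all detected genes passed it too. None of 16 detected genes passed 0.32 for benzene or toluene (medians -0.04 and -0.07). The shares of all detected genes were 2.88% higher and 3.96% lower for benzene, and 4.26% and 1.56% for toluene. Of 18 for formaldehyde, 4 were higher and 1 lower, against 6.8% and 10.7% of detected genes, with a median of 0.08. That total of 5 became 3 with the mean or median of probe sets and 0 with detection set at the 75th percentile. The inositol polyphosphate kinase gene Ipk2, whose place in the list is the least certain, read 6.87, 6.98, 6.97 and 7.67 on the control, benzene, toluene and formaldehyde arrays. Dh44 read 6.91, 6.95, 6.79 and 7.44. In wake, a gene that links the clock to sleep onset, the values were 6.06, 6.05, 6.18 and 6.46, and it reached the array median only on the formaldehyde array, so it entered the count through the array on which it was high. Slob, whose product binds a potassium channel, was at 0.36, and the channel gene Shaw, chosen after its value was seen, was the lower one at -0.34. Both went the same way for the other exposures, Slob at 0.22 for benzene and 0.14 for toluene and Shaw at -0.29 and -0.11.

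The clock neuropeptide gene Pdf, also chosen after its values were seen, read 6.71, 6.62, 6.66 and 6.67. These values lie close to the detection threshold, and on the formaldehyde array Pdf was within 0.05 log2 units of the control. The other detected neuropeptide genes of the list had formaldehyde log2 ratios of 0.53 (Dh44), 0.19 (ITP), 0.09 (Dh31), -0.08 (NPF) and -0.09 (sNPF).

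Transcripts reported to cycle in fly heads gave no common direction. The list holds no hour of peak for them, so their directions cannot be read as a check of phase. Of 11 detected, 1 was higher by at least 0.32 for benzene and 0 lower, 1 higher and 1 lower for toluene, and 2 higher and 1 lower for formaldehyde; the medians were 0.03, 0.04 and 0.08. The shares of all detected genes were 2.88% higher and 3.96% lower for benzene, 4.26% and 1.56% for toluene, and 6.8% and 10.7% for formaldehyde, so these counts of 1 or 2 genes lie close to the background. CG9649 read 8.65, 9.05, 8.98 and 9.40, with the control lowest. CG10513 read 10.80, 10.69, 10.40 and 10.37, with the control highest. Slob, which stands in this list too, completes the formaldehyde calls.

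The takeout family, small secreted carrier proteins of the type that binds juvenile hormone, is set beside the clock genes because its founder, to, is clock-controlled. RefSeq names 17 genes of a JHBP family (juvenile hormone binding proteins), of which 14 are on the array and 9 were detected. This is a smaller set than the takeout list given below. None of the 9 passed the threshold for any exposure, with medians of -0.06, 0.03 and 0.00. The shares of all detected genes were 2.88% higher and 3.96% lower for benzene, 4.26% and 1.56% for toluene, and 6.8% and 10.7% for formaldehyde. The lowest was Jhbp5 for each exposure, at -0.17, -0.24 and -0.32, the last just short of the unrounded threshold.

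The takeout list as first written held 18 detected genes. Its only calls, higher for each exposure, were 3 genes that RefSeq does not place in its JHBP family. The shares of all detected genes higher by that size were 2.88% for benzene, 4.26% for toluene and 6.8% for formaldehyde. At 1.5-fold 3 of the 18 were higher for benzene and for toluene and 0 for formaldehyde. That size was reached in either direction by 1.35%, 1.17% and 2.89% of detected genes. CG7916 had log2 ratios of 0.73, 0.73 and 0.57 for benzene, toluene and formaldehyde. CG7953 was at 0.70, 0.81 and 0.44, and CG8997 at 0.66, 0.71 and 0.52. The control array was the lowest in each. The list medians were -0.01, 0.10 and 0.00.

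**Figure D4:**
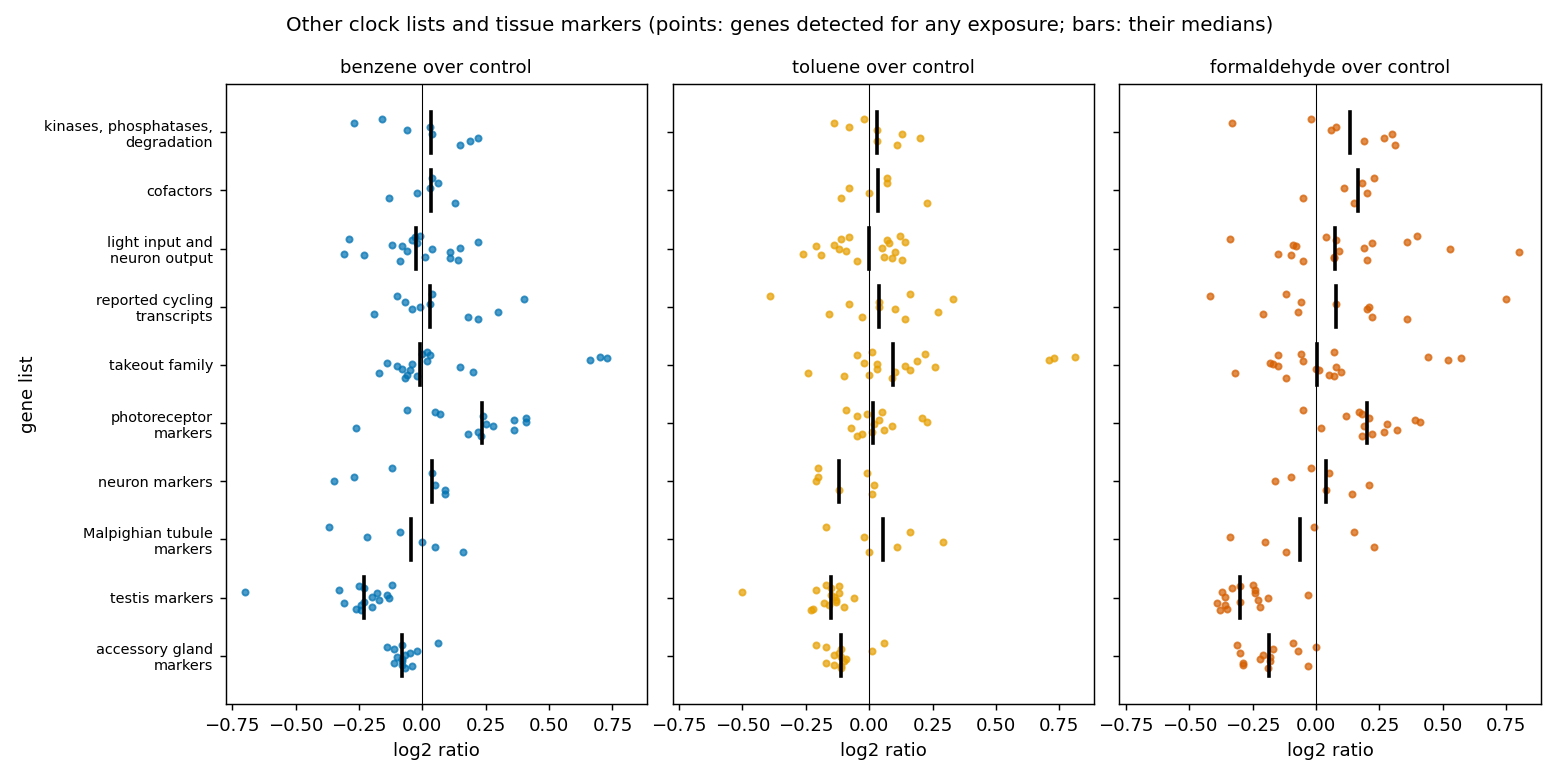
Log2 ratios to the control array for each exposure, 1 point per gene, for 5 other clock-related lists and 5 lists of tissue markers; bars are medians of the plotted genes, which are those detected for any exposure, so a bar can differ from the median in the text. Medians of the kinase, cofactor, output and cycling lists lie at or below 0.17, single output genes reach 0.80 for formaldehyde, and testis markers lie below 0 for all 3 exposures.

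Feeding state also acts on to and on clocks of the fat body, and genes of starvation and insulin signalling are set beside the clock genes for that reason. Past 0.32, 1 of 13 detected genes was higher for benzene and 0 lower, 5 of 14 were higher for toluene and 0 lower, and 1 of 13 was higher for formaldehyde and 1 lower, with medians of 0.03, 0.04 and 0.07. The shares of all detected genes were 2.88% higher and 3.96% lower for benzene, 4.26% and 1.56% for toluene, and 6.8% and 10.7% for formaldehyde. Against these the formaldehyde counts lie close to the background, and the benzene count is 1 gene. The insulin receptor gene InR was at 0.81 for formaldehyde, and the lipase gene Lip3 was at 1.39 for toluene. Lip3 read 5.30, 5.50, 6.69 and 5.86 and reached the array median only on the toluene array, so it is among the 5 through the array on which it was high. Lsd-1, for a lipid droplet protein and listed among the fat body markers too, was at 0.44 for benzene, 0.76 for toluene and -0.13 for formaldehyde.

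Tissues that hold clocks were read through their markers. The labels name no tissue, and markers of eye, fat body, testis and accessory gland were all detected; in such mixed RNA, fewer cells of a type and less RNA per cell cannot be told apart. The summed level of 14 photoreceptor markers, all detected, was 13.73 on the control array, 13.98 on benzene, 13.76 on toluene and 13.96 on formaldehyde, on a log2 scale. Photoreceptors carry strong clock rhythms. The eye markers stood higher on the benzene and formaldehyde arrays, of which the former had the lowest and the latter the highest tim value. By contrast per was higher on both of these (6.68 and 6.67) than on the control and toluene arrays (6.58 and 6.53). The part of eye content in these values was not tested. The sums for 10 neuron markers, 7 of them detected and 1 below background on all arrays, ran from 12.65 to 12.73, and those for 7 Malpighian tubule markers, 6 of them detected, from 11.66 to 11.80.

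Male reproductive markers were highest on the control array. The summed level of 20 testis markers, 16 of them detected and 3 below background on all arrays, was 16.00, 15.79, 15.87 and 15.71, and that of 14 accessory gland markers, all detected, was 16.40, 16.34, 16.31 and 16.21. Fat body markers, 8 of 8 detected, summed to 13.70, 13.83, 14.47 and 14.02. For formaldehyde Fbp1, Fbp2 and Lsp2 were at 2.49, 2.42 and 1.02, while fit, Lsd-2 and Lsd-1 were at -0.35, -0.25 and -0.13, and the list median was 0.05. The formaldehyde array, on which cwo and Pdp1 stood higher, thus also held a lower testis sum, a higher eye sum and a fat body sum raised by these 3 genes. The part of these markers in the clock values was not tested.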

How the data were processed

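Total RNA (300 ng) from male flies was labelled for 3'-biased Affymetrix arrays, per the labels' protocols. The authors deposited log2 probe set values for 4 arrays; RMA, MAS5 and version 1.1 of Affymetrix Expression Console appear in the submitters' processing notes without their roles. Near-equal quantiles across arrays resemble RMA output; RMA removes overall differences in RNA amount and tends to compress ratios of dim probe sets. Of 18952 probe sets, 183 were array controls and 13646 had a single gene symbol. Names came from the platform annotation; 23 of 206 listed names were matched through synonyms in RefSeq Release 6, and 31 matched no single-symbol probe set. Coordinates are left out because no build is named in the table.

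Values were used as deposited, with Python 3.11.15 and pandas 2.3.3. Where a gene had several probe sets, the one with the highest mean stood for it. Detection in a comparison of 2 arrays required the larger value to reach the median of its array (6.42 to 6.46, control probe sets left out). Background was the 95th percentile of 20 unspiked control probe sets (4.64 to 4.88). Counts used 2-fold, 1.5-fold and a log2 ratio of 0.32. The robust SD is the scaled median absolute deviation. Signal differences between the 3' and 5' actin control probe sets were 1.12, 1.09, 1.16 and 0.83 on the control, benzene, toluene and formaldehyde arrays, those of GAPDH 0.93 to 0.99 and those of eIF-4a 1.51 to 1.63. Named genes were all members, the 3 detected genes of largest ratio in each list, and the 5 nearest patterns to each of the 3 widest-ranging members. The members and lists were chosen with earlier results of these data known, and the lists were written from general knowledge. Calculations were checked on simulated data. Precision is limited by the number of arrays, since 1 per group allows no test.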

Additional observations from a re-analysis of the deposited data

How the results depend on the processing

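No paired analysis was possible because each group has 1 array and no result comes from a test. Centring, quantile scaling, probe set choice, the filter on dim genes and the choice of genes in the phase measure were varied. With no replicates, a ratio was taken as moved when it shifted by more than the robust SD of all genes' ratios, a count when it changed over 1.5 times. Of 624 recomputed values 590 stayed within these limits and 34 moved. The robust SD was 0.15 for benzene, 0.148 for toluene and 0.207 for formaldehyde, wider than many of the values checked. The formaldehyde phase measure thus counted as unmoved at 0.07, beside 0.25 as reported. Many counts were 0 throughout, and some alternatives could not change a value, so this tally is no measure of stability. Among values past 0.32 in size as reported, the only ones for which a reversal was sought, none changed sign. These were just the cwo and Pdp1 ratios for formaldehyde and the fat body median for toluene. Single-gene ratios were not recomputed with the second cwo probe set, whose formaldehyde log2 ratio was -0.04 beside 0.47 for the brighter one. With the mean or the median of all probe sets, members past a log2 ratio of 0.32 numbered 1 for benzene (cwo, with a log2 ratio of -0.33) and 1 for formaldehyde (Pdp1; cwo was then at 0.22). With the filter at the 75th percentile the formaldehyde count was also 1. That filter moved the kinase, phosphatase and degradation median for benzene to -0.11 and the starvation and insulin median for toluene to 0.36, over fewer genes. The phase measure had 14 alternatives, of which centring on array medians could not change it. Its sign turned to above 0 in 2 of them for benzene and in 2 for toluene, and in 0 did formaldehyde turn below 0. The alternative with cwo read by its second probe set was added after the data were seen. The signal of per (6.53 to 6.68) lay close to the detection threshold.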
